A study of Rattus norvegicus with 16 samples.

Results

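Macrophage and myeloid leukocyte genes were followed in the sciatic nerve of the rat after injury. The module holds 34 genes listed by symbol, and 33 of them were measured by a probe set annotated to 1 gene, out of 18166 genes measured in this way. Each of the 33 had 1 such probe set, so no choice between probe sets was needed. The other member, Fcgr2b, an inhibitory Fc receptor, shares its probe set with other Fc receptor genes and is given no value.

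The arrays came from 6-week-old male Sprague Dawley rats in which 1 sciatic nerve was resected and the distal ending was tucked away so that axons would not regrow into it. Nerves were taken 7 or 3 days post injury (DPI) and gave 4 groups of 4 arrays each: injured 7 DPI (the distal nerve), contralateral 7 DPI (the uninjured nerve of the other side), injured 3 DPI and contralateral 3 DPI. The contralateral nerves therefore came from operated animals, and no nerve of an unoperated rat was among the arrays. The labels call the 4 arrays of a group biological replicates but tie no nerve number to an animal, so p-values measure the spread between these arrays. Whole-nerve RNA was read on Affymetrix Rat Gene 2.0 ST arrays, and all values are log2 values after robust multichip analysis (RMA).

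As background, macrophages live in the uninjured nerve, and blood monocytes enter the distal nerve after axons are cut. Both clear axon and myelin debris during Wallerian degeneration. They depend on the receptor Csf1r for survival, carry scavenger, lectin, Fc and Toll-like receptors for uptake and sensing, and kill microbes with the NADPH oxidase. Cd163, Mrc1 and Lyve1 are often used to mark macrophages that reside in a tissue, and Ccr1, Cd14 and Clec7a are often used for recruited cells, although no gene here belongs to 1 state alone. In RNA from whole tissue, a change in the number of cells of a type and a change in the RNA per cell cannot be told apart.

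Array medians lay between 6.27 and 6.40, arrays within a group correlated at 0.982 to 0.989, and none was a copy of another. Of 7 Schwann cell genes, 2 rose and 2 fell at 7 DPI, and 1 rose and 2 fell at 3 DPI. Prx, a myelin protein gene, changed by -4.67 ± 0.14 at 7 DPI and by -4.23 ± 0.14 at 3 DPI on the log2 scale in injured against contralateral nerve (adjusted p = 3.6e-13 and 2.2e-12), and Ngfr, a neurotrophin receptor gene, by 3.00 ± 0.13 and 2.65 ± 0.13. Array 1 of the injured 7 DPI group stood apart in skeletal muscle genes, whose mean level was 2.02 there against -0.38 to 0.51 on the other 3 arrays of its group (log2, relative to each gene's mean over the 16 arrays). Adipocyte genes were at 0.21 to 1.26 in contralateral 7 DPI nerves and at -0.56 to 0.47 in contralateral 3 DPI nerves on the same scale. The part of muscle or fat RNA in the results below was not tested.

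The first question was whether myeloid mRNAs were higher or lower in the injured than in the contralateral nerve on each day. Most members were higher in injured nerve on both days, and none was called lower on either, where 2.17% of all genes were called lower at 7 DPI and 2.55% at 3 DPI. At 7 DPI, 14 of 33 members rose (an adjusted p below 0.05 and a change of 2-fold or more), where 2.48% of all genes passed that rule upward, and 15 more were higher with an adjusted p under 0.05 but less than 2-fold. At 3 DPI, 25 of 33 rose, where 3.25% of all genes did, and 6 more passed on adjusted p alone. By adjusted p alone, 29 of 33 members were higher at 7 DPI against 19.1% of all genes, and 31 of 33 at 3 DPI against 18.8%. The median change of the members was 0.91 at 7 DPI and 1.51 at 3 DPI (log2), and the median of all genes was -0.00 and -0.01. The lowest injured array lay above the highest contralateral array for 25 of 33 members at 7 DPI, against 18.9% of all genes, and for 31 of 33 at 3 DPI, against 19.3%. All 14 members called at 7 DPI were also called at 3 DPI.

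**Figure D1:**
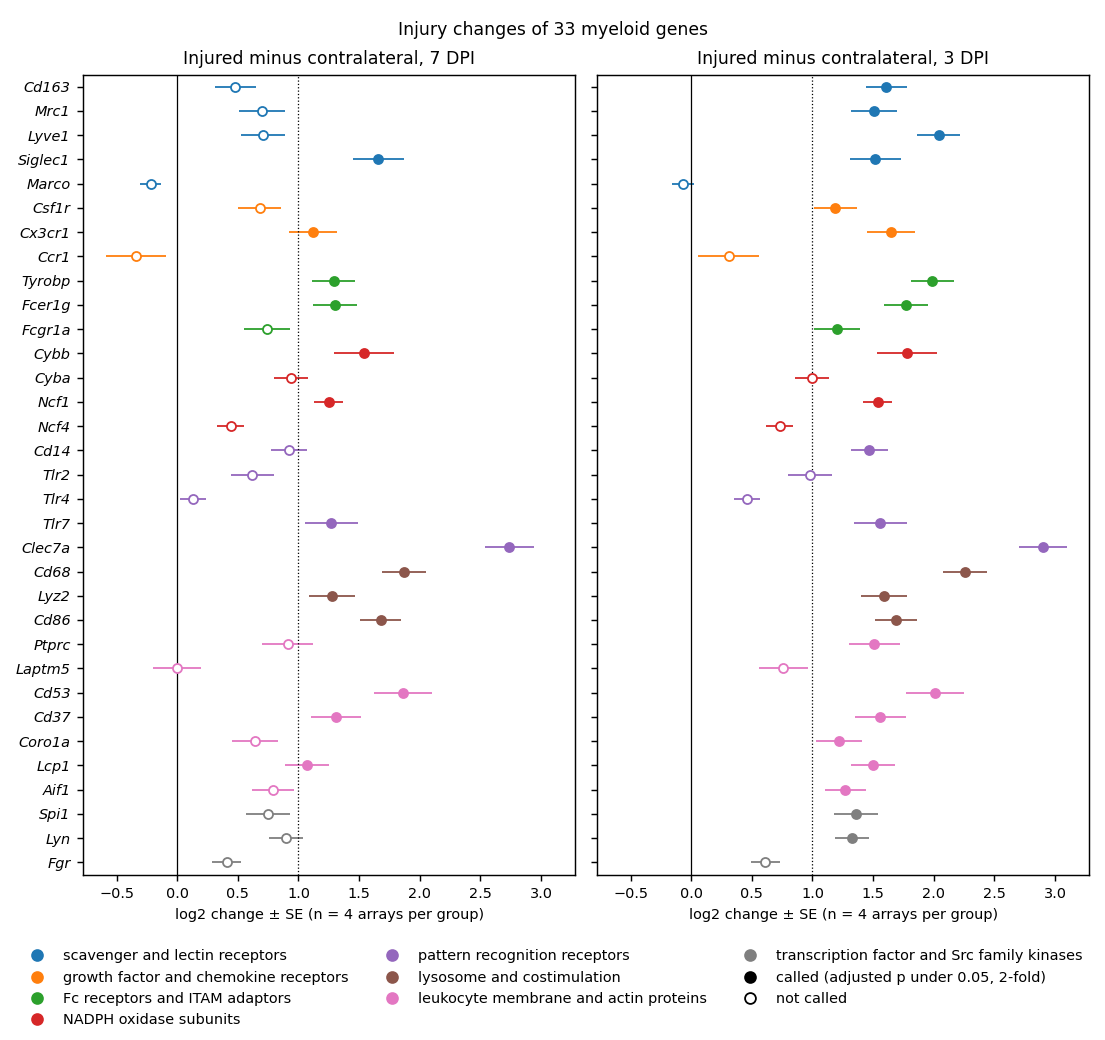
Log2 change of injured minus contralateral nerve with its standard error for the 33 measured genes (rows, coloured by role), at 7 DPI on the left and 3 DPI on the right; filled points passed the rule of adjusted p under 0.05 and 2-fold, and the dotted line marks 2-fold. Filled points number 14 at 7 DPI and 25 at 3 DPI, and Clec7a lies farthest right in both panels.

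Among the growth factor and chemokine receptors, Cx3cr1 rose on both days, Csf1r rose at 3 DPI, and Ccr1 passed on neither day. Csf1r, the receptor for the growth factors Csf1 and Il34, had 10.32, 9.85, 10.17 and 10.56 in injured 7 DPI nerves, against 9.43, 9.51, 9.78 and 9.49 in contralateral 7 DPI nerves. At 3 DPI its values were 10.69, 10.53, 10.53 and 10.69 in injured nerves, against 9.82, 9.39, 8.81 and 9.66 in contralateral nerves. The groups did not overlap on either day, but at 7 DPI the lowest injured array lay just above the highest contralateral one. Csf1r was higher by 0.68 ± 0.18 at 7 DPI (SE, n = 4 per group, adjusted p = 0.0074, 1.6-fold and so below the fold minimum) and by 1.19 ± 0.18 at 3 DPI (adjusted p = 4.9e-05). Without contralateral 3 DPI array 3, its lowest contralateral value, the change at 3 DPI was 0.98 and no longer reached 2-fold.

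Cx3cr1, the receptor for fractalkine, had 9.12, 9.16, 9.28 and 9.89 in injured 7 DPI nerves, against 8.30, 8.11, 8.47 and 8.08 in contralateral 7 DPI nerves. It had 9.56, 9.17, 9.56 and 9.83 in injured 3 DPI nerves, against 8.0, 7.35, 7.86 and 8.32 in contralateral 3 DPI nerves. Every injured array lay above every contralateral array of its day. The change was 1.12 ± 0.20 at 7 DPI (adjusted p = 0.00029) and 1.65 ± 0.20 at 3 DPI (adjusted p = 4.6e-06). At 7 DPI the 2-fold call rested on injured array 4, which was the highest of its group by far. Without that array the change was 0.95 (adjusted p = 0.001 in limma's test) and fell short of 2-fold. Ccr1, a receptor for Ccl3 and related chemokines, had a mean of 6.81 ± 0.47 in injured 7 DPI nerves and 7.16 ± 0.46 in contralateral 7 DPI nerves (SD, n = 4 each), and 7.10 ± 0.30 in injured 3 DPI nerves against 6.79 ± 0.37 in contralateral 3 DPI nerves. Its changes of -0.34 ± 0.25 and 0.31 ± 0.25 passed on neither day (adjusted p = 0.34 and 0.40), and its arrays overlapped on both.

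All 3 members of the lysosome and costimulation group rose on both days. Cd68, a lysosomal membrane glycoprotein of phagocytes, had 10.33, 9.64, 9.86 and 10.37 in injured 7 DPI nerves, against 8.10, 7.98, 8.51 and 8.11 in contralateral 7 DPI nerves. In injured 3 DPI nerves it had 10.40, 10.06, 10.29 and 10.55, against 8.34, 7.89, 7.72 and 8.31 in contralateral 3 DPI nerves. The nearest injured and contralateral arrays were 1.13 apart at 7 DPI and 1.72 apart at 3 DPI, so the gap between the groups was wider than the spread inside them. Cd68 rose 3.67-fold at 7 DPI and 4.80-fold at 3 DPI (log2 changes 1.87 ± 0.18 and 2.26 ± 0.18, adjusted p = 4.3e-07 and 3.3e-08). Cd86, which costimulates T cells, rose by 1.68 ± 0.17 and 1.69 ± 0.17, a nearly equal amount on both days. Lyz2, which encodes a lysozyme, rose by 1.28 ± 0.19 at 7 DPI and 1.59 ± 0.19 at 3 DPI.

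Of the 5 scavenger and lectin receptors, Siglec1 alone rose at 7 DPI, and 4 of 5 rose at 3 DPI. Cd163, the scavenger receptor for haptoglobin bound to haemoglobin, had 8.10, 7.34, 7.56 and 7.82 in injured 7 DPI nerves, against 6.97, 7.26, 7.41 and 7.24 in contralateral 7 DPI nerves. At 3 DPI it had 8.82, 8.37, 8.47 and 8.32 in injured nerves, against 7.34, 6.82, 6.59 and 6.80 in contralateral nerves. The groups overlapped at 7 DPI, where injured array 2 lay below contralateral array 3, and were clearly apart at 3 DPI. Its change was 0.48 ± 0.17 at 7 DPI (adjusted p = 0.042, 1.4-fold) and 1.61 ± 0.17 at 3 DPI (adjusted p = 1.3e-06, 3.05-fold).

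Mrc1, the mannose receptor, had 10.02, 9.40, 9.54 and 9.55 in injured 7 DPI nerves, against 8.62, 8.95, 9.20 and 8.92 in contralateral 7 DPI nerves. It had 10.32, 10.03, 10.10 and 10.17 in injured 3 DPI nerves, against 9.17, 8.5, 8.07 and 8.82 in contralateral 3 DPI nerves. Injured arrays were above contralateral arrays on both days, with a wider gap at 3 DPI. The change was 0.70 ± 0.19 at 7 DPI (adjusted p = 0.0083, 1.63-fold) and 1.51 ± 0.19 at 3 DPI (adjusted p = 7e-06, 2.85-fold).

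Lyve1, a hyaluronan receptor of lymphatic endothelium and of some tissue macrophages, had 9.36, 8.92, 9.51 and 9.70 in injured 7 DPI nerves, against 8.43, 8.69, 8.81 and 8.72 in contralateral 7 DPI nerves. At 3 DPI its values were 10.34, 10.05, 10.25 and 10.20 in injured nerves, against 8.61, 7.99, 7.65 and 8.42 in contralateral nerves. No injured array reached down to a contralateral one on either day, and all injured 3 DPI arrays lay above all injured 7 DPI arrays. Lyve1 was higher by 0.71 ± 0.18 at 7 DPI (adjusted p = 0.0064, 1.64-fold) and by 2.04 ± 0.18 at 3 DPI (adjusted p = 1.6e-07, 4.11-fold), the largest change in the group at 3 DPI. Because lymphatic vessels also carry Lyve1, 7 lymphatic endothelium genes were set beside it: Prox1, the transcription factor of these vessels, changed by -0.22 ± 0.20 and 0.17 ± 0.20, Flt4 by -0.34 ± 0.15 and -0.18 ± 0.15, and Mmrn1 by -0.73 ± 0.36 and 0.04 ± 0.36 at 7 and 3 DPI, none of them called. Pdpn was the 1 lymphatic gene called (1.13 ± 0.09 and 1.17 ± 0.09), and Reln was higher at an adjusted p under 0.05 without reaching 2-fold (0.50 ± 0.14 and 0.58 ± 0.14). The changes were positive for 2 of 7 lymphatic genes at 7 DPI and for 6 of 7 at 3 DPI. The mean level of these 7 genes relative to their means over all arrays was -0.09 to 0.39 in injured 7 DPI and -0.30 to 0.44 in contralateral 7 DPI nerves, and -0.26 to 0.15 in injured 3 DPI and -0.45 to -0.18 in contralateral 3 DPI nerves, and the part of lymphatic vessels in the Lyve1 values was not tested.

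Siglec1, a sialic acid binding lectin of macrophages, had 8.71, 7.78, 8.06 and 9.10 in injured 7 DPI nerves, against 6.82, 6.64, 6.87 and 6.69 in contralateral 7 DPI nerves. It had 8.25, 8.02, 7.87 and 8.27 in injured 3 DPI nerves, against 6.70, 6.70, 6.35 and 6.56 in contralateral 3 DPI nerves. The groups were far apart on both days, and the injured 7 DPI arrays spread over more than a log2 unit. Siglec1 rose by 1.66 ± 0.21 at 7 DPI and 1.52 ± 0.21 at 3 DPI (adjusted p = 9.4e-06 and 1.8e-05). Marco, a scavenger receptor of macrophages in spleen and lung, changed by -0.22 ± 0.09 and -0.07 ± 0.09 (adjusted p = 0.098 and 0.64), and its arrays overlapped on both days.

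**Figure D2:**
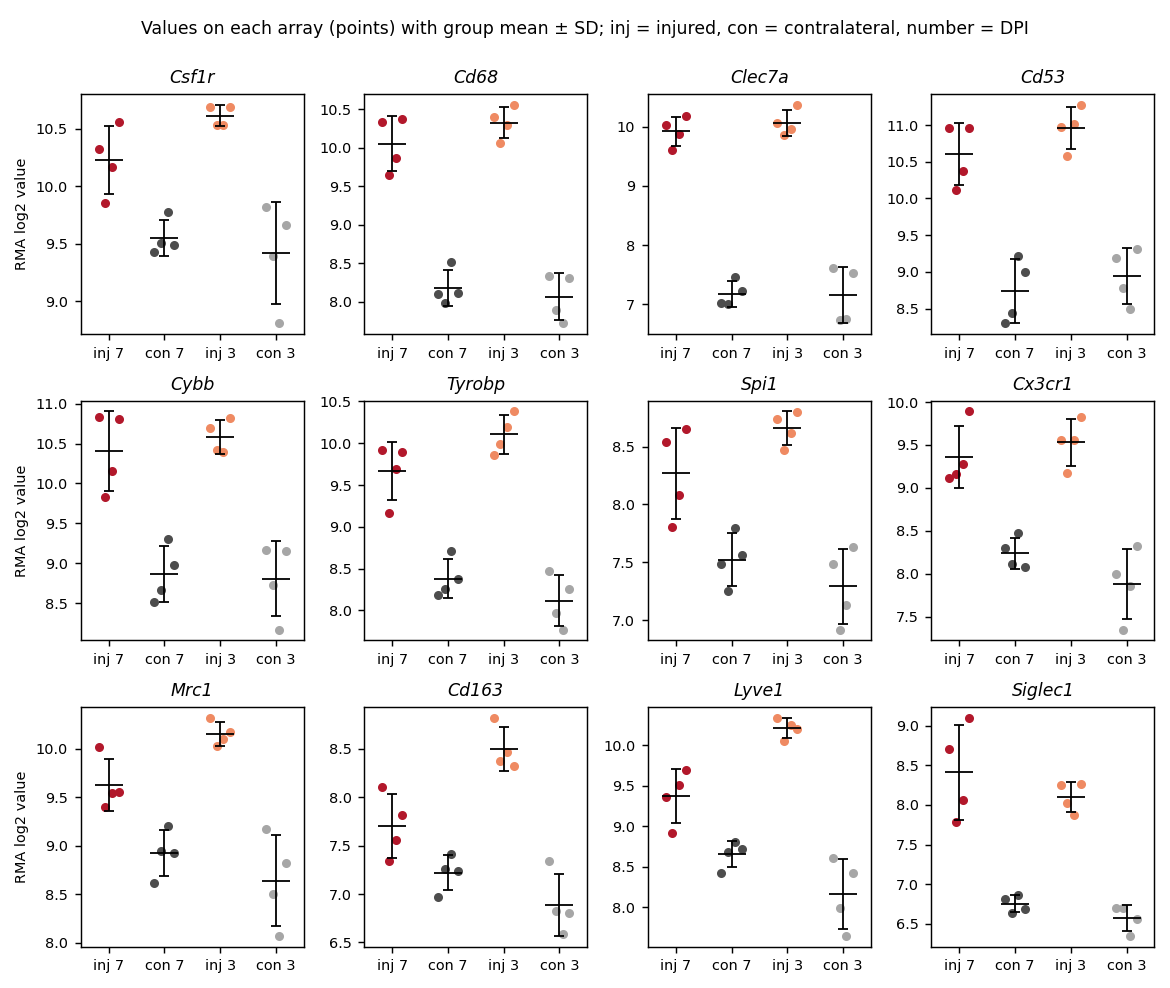
RMA log2 values of 12 genes on each array (points, offset by replicate number) with the group mean and SD (bars, n = 4), for injured and contralateral nerves at 7 DPI and at 3 DPI. For Cd68, Clec7a and Cd53 both injured groups sit at a similar height, while for Cd163 and Lyve1 the injured 7 DPI arrays lie below all injured 3 DPI arrays.

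Of the 5 pattern recognition receptors, Clec7a and Tlr7 rose on both days and Cd14 rose at 3 DPI. Clec7a, the receptor dectin-1 for fungal beta-glucan, had 10.02, 9.60, 9.88 and 10.18 in injured 7 DPI nerves, against 7.02, 7.00, 7.46 and 7.23 in contralateral 7 DPI nerves. It had 10.06, 9.85, 9.95 and 10.36 in injured 3 DPI nerves, against 7.61, 6.73, 6.76 and 7.53 in contralateral 3 DPI nerves. More than 2 log2 units separated the nearest arrays of the groups on each day (2.13 at 7 DPI and 2.24 at 3 DPI), the widest gap of any member. Clec7a rose 6.69-fold at 7 DPI and 7.45-fold at 3 DPI (2.74 ± 0.20 and 2.90 ± 0.20 on the log2 scale, adjusted p = 1.4e-08 and 4.9e-09). Tlr7, which senses single-stranded RNA in endosomes, rose by 1.27 ± 0.22 and 1.56 ± 0.22. Cd14, the coreceptor that hands lipopolysaccharide to Tlr4, was higher by 0.92 ± 0.15 at 7 DPI (adjusted p = 0.00016, 1.89-fold) and rose by 1.47 ± 0.15 at 3 DPI. Tlr2, which senses bacterial lipopeptides, came near 2-fold at 3 DPI (0.62 ± 0.18 and 0.98 ± 0.18, adjusted p = 0.014 and 0.00035). Tlr4, the lipopolysaccharide receptor, differed by 0.13 ± 0.11 at 7 DPI (adjusted p = 0.44) and was higher by 0.46 ± 0.11 at 3 DPI (adjusted p = 0.0041), less than 2-fold.

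All 3 measured Fc receptor and ITAM adaptor genes rose at 3 DPI, and 2 of them rose at 7 DPI. Tyrobp, the adaptor DAP12 that couples Trem2 and other receptors to the kinase Syk, had 9.92, 9.17, 9.69 and 9.90 in injured 7 DPI nerves, against 8.18, 8.25, 8.71 and 8.37 in contralateral 7 DPI nerves. In injured 3 DPI nerves it had 9.86, 9.99, 10.19 and 10.38, against 8.47, 7.97, 7.77 and 8.26 in contralateral 3 DPI nerves. The groups were apart on both days, and injured 7 DPI array 2 was the lowest injured array. Tyrobp rose by 1.29 ± 0.18 at 7 DPI and by 1.99 ± 0.18 at 3 DPI (adjusted p = 2.8e-05 and 1.7e-07). Fcer1g, the common gamma chain of activating Fc receptors, rose by 1.30 ± 0.18 and 1.77 ± 0.18. Fcgr1a, the high-affinity IgG receptor, was higher by 0.74 ± 0.19 at 7 DPI (adjusted p = 0.0062, 1.67-fold, arrays overlapping) and rose by 1.20 ± 0.19 at 3 DPI (adjusted p = 8.9e-05).

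The 4 NADPH oxidase subunits divided in the same way on both days: Cybb and Ncf1 rose, while Cyba and Ncf4 passed on adjusted p but not on fold. Cybb, the catalytic subunit gp91phox, had 10.83, 9.83, 10.15 and 10.81 in injured 7 DPI nerves, against 8.51, 8.66, 9.31 and 8.98 in contralateral 7 DPI nerves. It had 10.70, 10.42, 10.39 and 10.82 in injured 3 DPI nerves, against 9.17, 8.73, 8.17 and 9.15 in contralateral 3 DPI nerves. The lowest injured array was above the highest contralateral array by 0.522 at 7 DPI and by 1.23 at 3 DPI. Cybb rose by 1.54 ± 0.25 and 1.78 ± 0.25 (adjusted p = 0.00012 and 2.4e-05). Ncf1, the cytosolic organiser p47phox, rose by 1.25 ± 0.12 and 1.54 ± 0.12. Its SD was 0.25 in each injured group, 0.1 in contralateral 7 DPI and 0.05 in contralateral 3 DPI nerves. Cyba, the membrane partner p22phox that many tissues express, was higher by 0.94 ± 0.14 (1.92-fold) and 1.00 ± 0.14 (1.99-fold), just short of the fold minimum on both days. Ncf4, the cytosolic subunit p40phox, was higher by 0.44 ± 0.11 and 0.73 ± 0.11 (adjusted p = 0.0055 and 5.6e-05).

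Among the 7 leukocyte membrane and actin genes, 3 rose at 7 DPI and 6 at 3 DPI. Cd53, a tetraspanin of leukocytes, had 10.96, 10.12, 10.38 and 10.96 in injured 7 DPI nerves, against 8.30, 8.44, 9.22 and 9.0 in contralateral 7 DPI nerves. At 3 DPI it had 10.97, 10.58, 11.01 and 11.27 in injured nerves, against 9.19, 8.78, 8.49 and 9.31 in contralateral nerves. All injured arrays were above all contralateral arrays of their day. Cd53 rose by 1.86 ± 0.24 and 2.01 ± 0.24 (adjusted p = 1.3e-05 and 4.3e-06), and the related tetraspanin Cd37 by 1.31 ± 0.21 and 1.56 ± 0.21. Lcp1, an actin bundling protein of leukocytes, rose by 1.07 ± 0.18 at 7 DPI and 1.5 ± 0.18 at 3 DPI. The call for Lcp1 at 7 DPI lay close to the minimum, since the change was 0.96 without injured array 1, 0.96 without injured array 4 and 0.99 without contralateral array 2.

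Ptprc, the phosphatase CD45 found on all leukocytes, was higher by 0.91 ± 0.21 at 7 DPI (adjusted p = 0.0032, 1.87-fold) and rose by 1.51 ± 0.21 at 3 DPI. Aif1, the actin binding protein Iba1 that is widely used to stain macrophages, was higher by 0.79 ± 0.17 (1.73-fold) and rose by 1.27 ± 0.17, and Coro1a, an actin regulator of leukocytes, was higher by 0.64 ± 0.19 (1.56-fold) and rose by 1.22 ± 0.19. Laptm5, a lysosomal transmembrane protein of blood cells, behaved otherwise at 7 DPI: its mean was 9.64 ± 0.31 in injured nerves and 9.64 ± 0.20 in contralateral nerves (SD, n = 4 each), a change of 0.00 ± 0.20. At 3 DPI it had 9.93 ± 0.15 in injured nerves and 9.18 ± 0.49 in contralateral nerves, a change of 0.76 ± 0.20 (adjusted p = 0.0062) that did not reach 2-fold.

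Of the 3 transcription factor and Src family kinase genes, 0 rose at 7 DPI, although all 3 were higher at an adjusted p under 0.05 in limma's test, and 2 rose at 3 DPI. Spi1, which encodes PU.1, the transcription factor needed for macrophage development, had 8.54, 7.81, 8.08 and 8.65 in injured 7 DPI nerves, against 7.49, 7.25, 7.80 and 7.56 in contralateral 7 DPI nerves. It had 8.74, 8.47, 8.62 and 8.80 in injured 3 DPI nerves, against 7.49, 6.92, 7.13 and 7.63 in contralateral 3 DPI nerves. At 7 DPI injured array 2 only just cleared contralateral array 3, and at 3 DPI the groups were well apart. Spi1 was higher by 0.75 ± 0.18 at 7 DPI (adjusted p = 0.0043, 1.68-fold) and rose by 1.36 ± 0.18 at 3 DPI (adjusted p = 1.4e-05). Lyn, a kinase that signals below Fc and other immune receptors, was higher by 0.90 ± 0.14 (1.87-fold) and rose by 1.33 ± 0.14. Fgr, a related kinase of myeloid cells, was higher by 0.41 ± 0.12 and 0.61 ± 0.12 (adjusted p = 0.012 and 0.00048).

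PU.1, which the member Spi1 encodes, binds purine-rich DNA around GAGGAA. The RefSeq promoters of the members (rat assembly GRCr8) were therefore searched for GAGGAA and its complement TTCCTC. The search covered the 250 bases before the start of each gene. Promoters were held for 24 of the 33 measured members, and 15 of these 24 (62.5%) contained the motif, against 23.3% of 33469 rat promoters of the same length. The longer form GAGGAAGT, which contains the first, was found in 2 of 24, those of Cd37 and Cd53, against 2.04% of all. A match to these letters is a description and not a binding site, and the arrays did not measure binding. A link between the motif and the changes of the members was not tested. The 4 promoters below are examples from members whose values are given on every array, and they lie outside the annotated gene. Other such members had promoters too: Csf1r and Cd53 contained the motif, while Cd163, Cx3cr1 and Clec7a did not. Of members called on neither day and with a promoter held, Marco, Ccr1, Tlr4 and Laptm5 contained it, and Cyba, Tlr2 and Fgr did not. Cybb (chrX:16065066-16065315, minus strand), Cd68 (chr10:54882442-54882691, minus strand) and Mrc1 (chr17:82157475-82157724, plus strand) carry the motif, in capitals, and Lyve1 (chr1:174410978-174411227, minus strand) does not carry it in this window. Each is written 5′ to 3′ along the strand of its gene.
Cybb: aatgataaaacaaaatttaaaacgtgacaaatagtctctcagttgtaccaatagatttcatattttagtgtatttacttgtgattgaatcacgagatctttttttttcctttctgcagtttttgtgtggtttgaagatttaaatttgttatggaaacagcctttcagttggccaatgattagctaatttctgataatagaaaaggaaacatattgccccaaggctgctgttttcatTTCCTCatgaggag
Cd68: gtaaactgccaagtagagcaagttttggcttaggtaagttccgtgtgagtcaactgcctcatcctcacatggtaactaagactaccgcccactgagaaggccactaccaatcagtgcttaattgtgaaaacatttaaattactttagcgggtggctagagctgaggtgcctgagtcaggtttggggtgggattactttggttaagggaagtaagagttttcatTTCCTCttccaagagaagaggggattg
Mrc1: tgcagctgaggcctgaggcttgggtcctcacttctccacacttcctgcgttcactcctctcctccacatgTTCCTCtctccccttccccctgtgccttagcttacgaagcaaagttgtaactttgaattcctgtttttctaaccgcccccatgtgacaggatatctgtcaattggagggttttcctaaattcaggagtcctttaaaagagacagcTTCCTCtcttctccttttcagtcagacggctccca
Lyve1: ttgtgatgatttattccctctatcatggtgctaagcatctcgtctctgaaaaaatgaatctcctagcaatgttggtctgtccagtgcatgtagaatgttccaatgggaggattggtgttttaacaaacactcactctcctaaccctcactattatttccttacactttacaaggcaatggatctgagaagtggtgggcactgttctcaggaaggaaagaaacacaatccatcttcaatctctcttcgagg

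The next question was whether the injury effect differed between the days. The signed log2 change was lower at 7 DPI than at 3 DPI for 32 of 33 members, with Siglec1 the exception, where it was lower for 49.0% of all genes. For Marco (-0.22 and -0.07) and Ccr1 (-0.34 and 0.31), a lower signed change at 7 DPI was the larger one in size. The median difference of the 2 changes was -0.43 over the members and 0.00 over all genes. The members share their arrays and moved together on them, so this count does not add up 33 separate observations. By the test of the difference itself, 2 of 33 members, Lyve1 and Cd163, had a smaller injury effect at 7 DPI with at least a 2-fold difference, against 0.270% of all genes, and 0 had a larger one, against 0.116% of all genes. In limma's test, 9 members had an unadjusted p under 0.05 for the difference, against 13.6% of all genes. The difference was -1.33 ± 0.26 for Lyve1 (adjusted p = 0.015) and -1.13 ± 0.24 for Cd163 (adjusted p = 0.026). Lyve1 was still called whichever of the 16 arrays was left out, and Cd163 was not when any 1 of 9 arrays was left out, with adjusted p between 0.052 and 0.059. Mrc1 differed by -0.81 ± 0.27 and Tyrobp by -0.70 ± 0.25, and neither passed (adjusted p = 0.17 and 0.23). Cell division genes moved the same way, with 10 of 10 lower in this difference, a median of -0.96 and 4 of them called, and their part in the myeloid values was not tested. For Clec7a, Cd53, Cyba and Cd86 the difference was between -0.15 and -0.01, with standard errors of 0.20 to 0.34.

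The groups were then compared between the days on each side. In injured nerves, the arrays at 7 DPI lay below those at 3 DPI without overlap for 5 of 33 members (Lyve1, Cd163, Mrc1, Cd14 and Lyz2), against 4.64% of all genes. Lyve1 changed by -0.84 ± 0.18 and Cd163 by -0.79 ± 0.17 in injured 7 DPI against injured 3 DPI nerves (adjusted p = 0.015 for both). These were the 2 of 33 members lower at an adjusted p under 0.05, against 1.78% of all genes. Neither reached 2-fold, so 0 of 33 members were called between injured 7 DPI and injured 3 DPI nerves, against 0.319% of all genes. In limma's test, 7 members had an unadjusted p under 0.05 there, against 17.3% of all genes. The injured changes were positive for 3 of 33 members, with a median of -0.24, where 49.9% of all genes were positive. In contralateral nerves, 0 of 33 were called between 7 and 3 DPI, against 0.0110% of all genes, with 0 at an adjusted p under 0.05, against 0.0716% of all genes, and 4 at an unadjusted p under 0.05 (Ptprc, Lyve1, Tlr4 and Laptm5), against 11.2% of all genes, a share close to that of the members. The contralateral changes were nevertheless positive for 30 of 33 members, with a median of 0.20, where 49.4% of all genes were positive. Injured and contralateral changes between the days both enter the difference of injury effects. In contralateral nerves Lyve1 changed by 0.49 ± 0.18 and Ptprc by 0.59 ± 0.21 (adjusted p = 0.33 and 0.31 in limma's test). Only Ncf4 had contralateral 7 DPI arrays entirely above the contralateral 3 DPI arrays, against 2.92% of all genes. Other lists moved the same way in the contralateral nerves. Adipocyte genes were positive for 8 of 8 with a median change of 1.10, cell division genes for 10 of 10 with a median of 0.65 and red blood cell genes for 2 of 2 with a median of 0.67. None of these genes was called, 1 cell division gene had an adjusted p under 0.05, and their part in the myeloid values was not tested.

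To contrast resident with recruited macrophages, 6 members often used for resident cells (Cd163, Mrc1, Lyve1, Siglec1, Marco and Cx3cr1) were set beside 6 often used for recruited or activated cells (Cd14, Ccr1, Clec7a, Fcgr1a, Tlr2 and Cd86). These groups were chosen with results of these data known, and their counts are a description. Of the resident type members, 2 of 6 rose at 7 DPI and 5 of 6 at 3 DPI, with median changes of 0.71 and 1.57. Of the recruited type members, 2 of 6 rose at 7 DPI and 4 of 6 at 3 DPI, with medians of 0.83 and 1.33. Of all genes, 2.48% rose at 7 DPI and 3.25% at 3 DPI. The median difference between the days was -0.67 for the resident type and -0.41 for the recruited type, against -0.43 for all members. Members within each group differed more than the groups did. Among the first 6, the difference between the days ran from -1.33 (Lyve1) to 0.14 (Siglec1), and among the second 6 from -0.65 (Ccr1) to -0.01 (Cd86). No test of 1 group against the other was made.

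Each of Cd163, Mrc1, Lyve1, Cd14, Ccr1 and Clec7a was also taken relative to Csf1r on the same array. Csf1r is 1 choice of scale among members that changed by different amounts, and it was not tested as a measure of macrophage mRNA. The genes and this scale were picked with earlier results of these data known. The share of all genes that separate from Csf1r in this way is not given here. Relative to Csf1r, Lyve1 averaged -0.86 ± 0.14 in injured 7 DPI nerves and -0.89 ± 0.11 in contralateral 7 DPI nerves (SD, n = 4 each), a change of 0.04, but -0.40 ± 0.10 in injured 3 DPI nerves and -1.25 ± 0.10 in contralateral 3 DPI nerves, a change of 0.85. The 4 injured 3 DPI arrays lay wholly above the contralateral ones for Lyve1, and the 7 DPI arrays overlapped. Mrc1 changed by 0.03 at 7 DPI and 0.33 at 3 DPI, Cd163 by -0.19 and 0.42, and Cd14 by 0.24 and 0.29. Clec7a changed by 2.07 at 7 DPI and 1.71 at 3 DPI relative to Csf1r, and Ccr1 by -1.02 and -0.88. Ccr1 itself was called on neither day (-0.34 ± 0.25 and 0.31 ± 0.25), while Csf1r was higher by 0.68 and 1.19. The Ccr1 group means lay above 46.9% to 53.9% of all genes. Of the 12 changes relative to Csf1r, 6 reached p = 0.029 in exact two-sided permutation tests, the smallest p that 4 arrays against 4 can give. These were Clec7a and Ccr1 on both days, and Lyve1 and Mrc1 at 3 DPI. After adjustment over the 12 tests none passed, the smallest adjusted p being 0.057. After cyclic loess normalisation between arrays it was 0.049, because Cd14 at 7 DPI then also reached the smallest possible p. For these 6 the injured and contralateral arrays did not overlap, which is what that smallest p means.

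**Figure D3:**
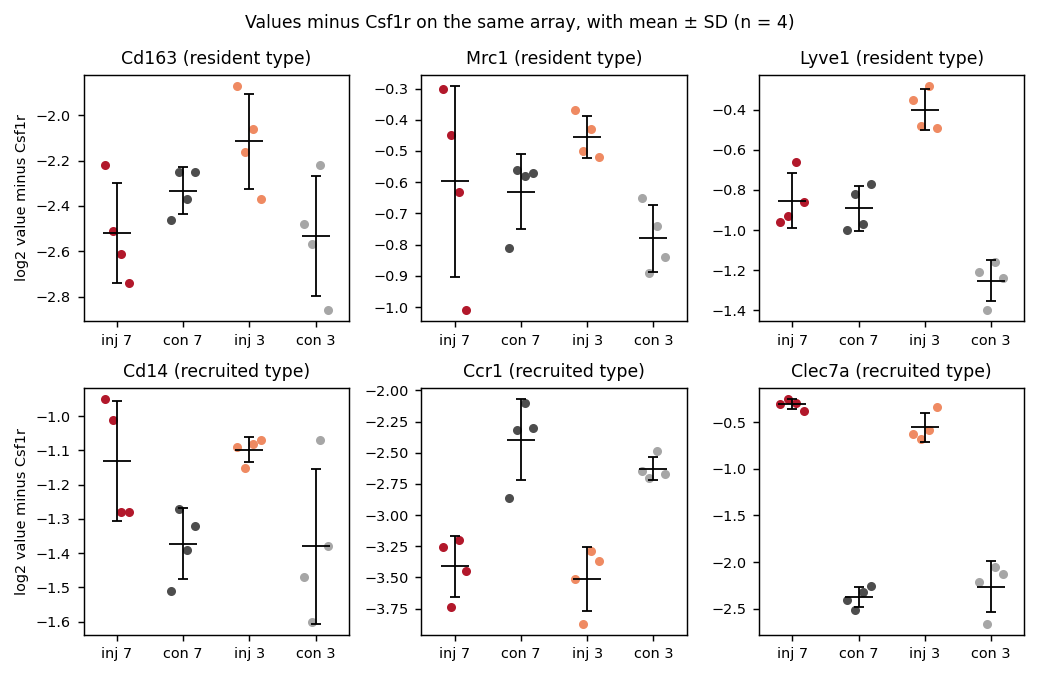
Log2 value of 3 resident type and 3 recruited type genes minus that of Csf1r on the same array (points), with mean and SD of each group (bars, n = 4), for injured and contralateral nerves at 7 DPI and at 3 DPI. Lyve1 stands 0.85 higher relative to Csf1r in injured than in contralateral nerves at 3 DPI and 0.04 at 7 DPI, while Clec7a is shifted by 2.07 and 1.71 at 7 and 3 DPI.

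Members of the module varied together between arrays of 1 group, as counted below over the members alone. The share of all genes that were extreme on the same arrays is not given here. Injured 7 DPI array 2 was the lowest of its group for 30 of 33 members and array 4 the highest for 22. Contralateral 7 DPI array 3 was the highest of its group for 30, injured 3 DPI array 4 for 27 and contralateral 3 DPI array 1 for 21, and contralateral 3 DPI array 3 was the lowest for 22. The median SD of a member was 0.33 in injured 7 DPI, 0.20 in contralateral 7 DPI, 0.17 in injured 3 DPI and 0.32 in contralateral 3 DPI nerves, against 0.12 to 0.13 for all genes. By this measure injured 3 DPI nerves were the most alike of the 4 groups in the member genes. The number of members called at 7 DPI was 18 without injured array 2 and 12 without injured array 4, and it was 13 without injured array 1, the array with raised muscle genes.

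**Figure D4:**
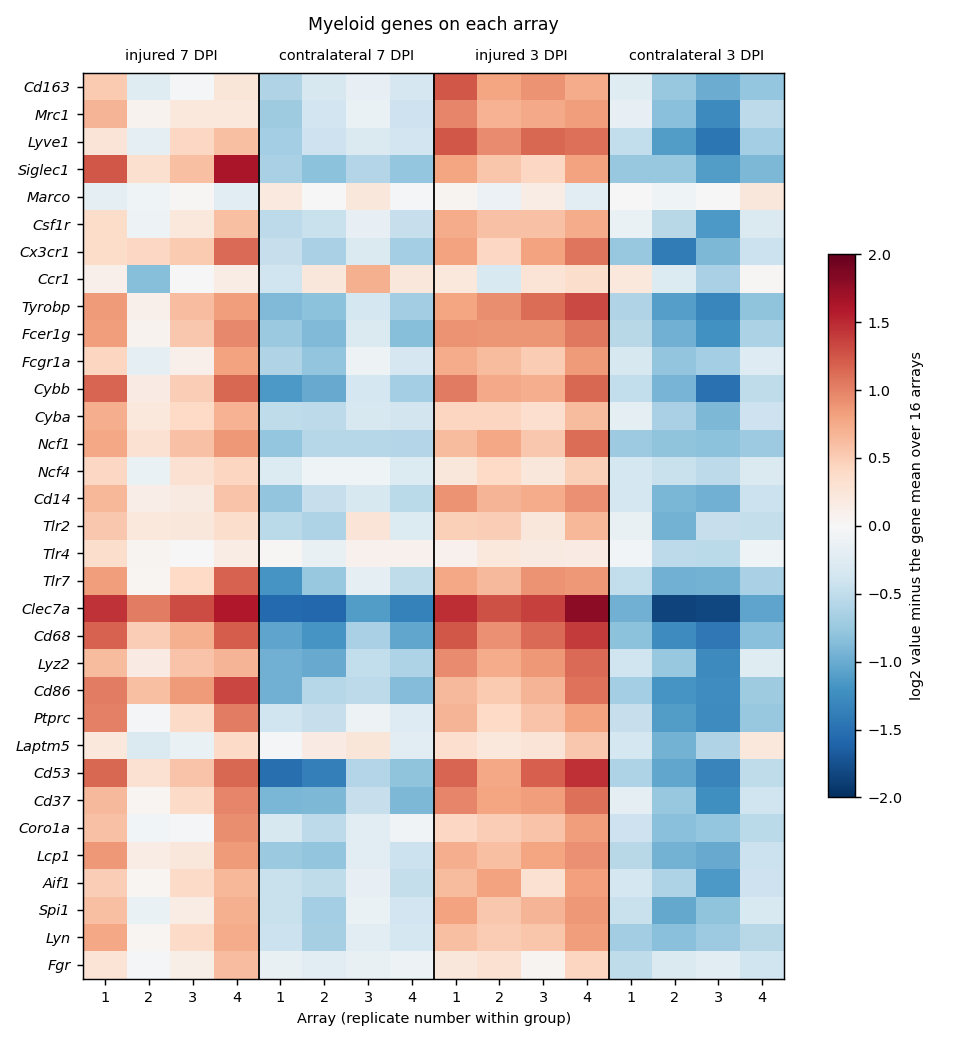
Log2 value of each of the 33 genes (rows) on each of the 16 arrays (columns, grouped as injured 7 DPI, contralateral 7 DPI, injured 3 DPI and contralateral 3 DPI) minus the mean of the gene over all arrays; red is above and blue below that mean. Injured 7 DPI array 2 is pale down most of its column, being the lowest of its group for 30 of 33 genes, and contralateral 7 DPI array 3 is the highest of its group for 30.

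Genes of the same pathways outside the module were counted from lists that were also chosen with earlier results known. The share of all genes that rose, 2.48% at 7 DPI and 3.25% at 3 DPI, stands beside these counts and those of the lists that follow. Among other general macrophage genes, 10 of 24 rose and 1 fell at 7 DPI, and 13 of 24 rose at 3 DPI. Gpnmb, a glycoprotein of lipid-laden macrophages, led them with 2.87 ± 0.18 and 2.88 ± 0.18, ahead of C1qb, a chain of complement C1q (1.67 ± 0.21 and 2.00 ± 0.21). The gene that fell was Spp1, osteopontin, which Schwann cells also express (-1.27 ± 0.09 at 7 DPI, against 0.07 ± 0.09 at 3 DPI). Of other genes used for resident macrophages, 2 of 15 rose at 7 DPI and 6 of 15 at 3 DPI, including Trem2, a lipid receptor that signals through Tyrobp (1.33 ± 0.13 and 1.73 ± 0.13), and Folr2, a folate receptor (1.01 ± 0.15 and 1.5 ± 0.15). Others of this list were lower at an adjusted p under 0.05 but less than 2-fold: Maf, a transcription factor, differed by -0.29 ± 0.09 and -0.55 ± 0.09 (adjusted p = 0.014 and 6.6e-05), and the chemokine Ccl24 by -0.71 ± 0.22 at 7 DPI (adjusted p = 0.021). F13a1, a coagulation factor subunit of tissue macrophages, changed by -1.04 ± 0.25 in injured 7 DPI against injured 3 DPI nerves (adjusted p = 0.028). It was the 1 of 15 in this list lower there at an adjusted p under 0.05 in limma's test. Among the 15 monocyte and recruited macrophage genes listed next, 2 were lower by that rule, and 1.78% of all genes were. Of other monocyte and recruited macrophage genes, 3 of 15 rose at 7 DPI and 5 of 15 at 3 DPI, among them Lgals3, a galectin of phagocytes (1.64 ± 0.11 and 2.18 ± 0.11), and the chemokine receptor Ccr2 (1.47 ± 0.39 and 1.83 ± 0.39).

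Partners of the member receptors were read in the same way. Of the Toll receptor partners, 4 of 12 rose at 7 DPI and 6 of 12 at 3 DPI, led by Cd180, a receptor related to Tlr4 (1.30 ± 0.20 and 1.81 ± 0.20), with Ly96, the partner of Tlr4 that binds lipopolysaccharide (1.08 ± 0.13 and 1.41 ± 0.13). Of the genes of ITAM signalling, 2 of 10 rose at 7 DPI and 5 of 10 at 3 DPI, such as the adaptor Blnk (1.23 ± 0.12 and 1.56 ± 0.12). Rac2, the small GTPase of the phagocyte oxidase, was the 1 of 3 remaining oxidase genes to rise, at 3 DPI (1.28 ± 0.19). Of the ligands of the member receptors, 0 of 8 rose at 7 DPI (in limma's test, 2 were higher at an adjusted p under 0.05) and 1 of 8, Ccl3, a chemokine bound by Ccr1, at 3 DPI (1.06 ± 0.21). Csf1 differed by 0.27 ± 0.10 and 0.65 ± 0.10 and Il34 by -0.81 ± 0.11 and -0.81 ± 0.11, both ligands of Csf1r and neither called on fold.

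Several members are also expressed by other leukocytes, so markers of those cells were read beside them. Of 12 neutrophil genes, Mmp8 rose and Lcn2 fell at 7 DPI, and Csf3r and Mmp8 rose at 3 DPI. S100a8, a main neutrophil transcript, differed by -0.10 ± 0.20 and 0.31 ± 0.20. By adjusted p alone in limma's test, 4 of 12 were higher and 2 lower at 7 DPI, and 2 were higher at 3 DPI. Of all 18166 genes, 19.1% were higher and 2356 genes lower by that rule at 7 DPI. At 3 DPI, 18.8% were higher and 2664 genes lower. The mean level of the neutrophil list was -0.03 to 0.17 in injured 7 DPI and -0.12 to 0.07 in contralateral 7 DPI nerves, and -0.03 to 0.22 in injured 3 DPI and -0.16 to -0.05 in contralateral 3 DPI nerves (mean log2 relative to each gene's mean). These levels overlapped between injured and contralateral arrays at 7 DPI and did not at 3 DPI. For the 33 members the same measure was 0.08 to 0.76 in injured 7 DPI and -0.64 to -0.23 in contralateral 7 DPI nerves, and 0.58 to 0.87 in injured 3 DPI and -0.97 to -0.43 in contralateral 3 DPI nerves. Of 17 T and natural killer cell genes, 0 rose at 7 DPI (5 at an adjusted p under 0.05 alone in limma's test) and 1, Cd8b, rose at 3 DPI (by adjusted p alone, 3 were higher and 1 lower). The 3 of 17 higher at 3 DPI lay near the share of all genes. The T cell receptor subunit Cd3e differed by 0.18 ± 0.11 and 0.02 ± 0.11, and Cd4, which rat macrophages also express, by 0.95 ± 0.18 and 0.85 ± 0.18. The mean level of the T and natural killer cell list was -0.00 to 0.54 in injured 7 DPI and -0.19 to -0.04 in contralateral 7 DPI nerves, and 0.00 to 0.09 in injured 3 DPI and -0.30 to -0.05 in contralateral 3 DPI nerves. For the dendritic cell list it was 0.02 to 0.46 in injured 7 DPI and -0.18 to -0.03 in contralateral 7 DPI nerves, and 0.02 to 0.12 in injured 3 DPI and -0.25 to -0.07 in contralateral 3 DPI nerves. Injured and contralateral arrays did not overlap in either list on either day, and the part of these cells in the member values was not tested. No gene of 7 for B cells or 7 for dendritic cells was called on either day (by adjusted p alone in limma's test, 1 and 4 were higher at 7 DPI and 1 and 2 at 3 DPI). For B cells, 1 of 7 higher on each day lay near the share of all genes, and 1 was lower at 7 DPI. Of 7 mast cell genes, the protease Mcpt1 alone was called, at 1.52 ± 0.47 and 2.12 ± 0.47. At 7 DPI, 4 of 7 were lower at an adjusted p under 0.05 but less than 2-fold, among them Hdc, the enzyme that makes histamine (-0.55 ± 0.12). At that adjusted p, 2356 of 18166 genes were lower. The median change of the list was -0.50 at 7 DPI and 0.20 at 3 DPI. Genes of cell division rose with the members, 9 of 10 at 7 DPI and all 10 at 3 DPI, and which cells divided was not tested.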

How the data were processed

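The deposited table holds log2 values for 36685 probe sets on 16 arrays, made by the authors with RMA in the oligo package (background correction, quantile normalisation and summary per probe set), with the package version not given in the sources used here. Quantile normalisation gives all arrays nearly 1 distribution, so changes are relative to the other genes. Scan dates and detection calls were not used here.

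Probe sets were named through the platform annotation: 18511 had 1 gene symbol, 575 several and 17599 none, and 18394 were held in RefSeq. For 291 genes with several probe sets the one with the highest mean was kept, which left 18166 genes. Group means of the 4 groups were fitted over 16 arrays with limma 3.58.1 (lmFit and eBayes) in R 4.3.3, and p-values were adjusted by Benjamini-Hochberg over all 18166 genes. The rule for a call was an adjusted p below 0.05 together with a change of 2-fold or more. The difference of injury effects was a contrast in the same fit. Values relative to Csf1r were tested by exact two-sided permutation (SciPy 1.17.1). The fit was tested on simulated data.

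Every measured member is named. Values on every array are given for Csf1r, Cd68, Cd163, Mrc1, Lyve1, Cx3cr1 and the leading genes of each role, and other genes are given by counts or group values. Members, lists and named genes were chosen with earlier results of these data known. Alternatives were another normalisation, pooled contralateral arrays, the compared groups alone, no fold minimum, no dim genes, a replicate block and leaving out each array.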

Additional observations from a re-analysis of the deposited data

Results flagged for a closer look

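In 4 of 132 groups of 4 arrays, 1 array lay far from the other 3 relative to the range of its group, where chance marks about 1 group in 20. Fcer1g was 11.75 on injured 3 DPI array 4, against 11.57 to 11.59 on the others. Cd37 was 8.12 on contralateral 7 DPI array 3, against 7.67 to 7.68. Ncf1 was 7.26 on contralateral 7 DPI array 1, against 7.44 to 7.46. Ccr1 was 6.11 on injured 7 DPI array 2, against 6.97 to 7.11.

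The injury effect differed between 7 and 3 DPI, by the test of the difference itself, for Lyve1 (-1.33 on the log2 scale, adjusted p = 0.015) and Cd163 (-1.13, adjusted p = 0.026). With 1 array left out, the Cd163 call was lost in 9 of 16 fits and the Lyve1 call in 0.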

How the results depend on the processing

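No result changed direction past a threshold under any alternative. With no fold minimum, 29 members were called at 7 DPI and 2 between injured 7 DPI and injured 3 DPI nerves. Without 1 array, the number called ranged from 12 to 18 at 7 DPI, from 24 to 27 at 3 DPI, from 1 to 2 for the difference of injury effects, and stayed at 0 between injured nerves and between contralateral nerves of the 2 days. At 7 DPI, Cd14 (1.00), Ptprc (1.12), Cyba (1.04) and Lyn (1.05) were gained without injured array 2. With all contralateral arrays pooled, Ptprc (1.20) and Lyn (1.05) were gained, and with cyclic loess Lcp1 (0.97) was lost. At 3 DPI, Cyba (1.00 to 1.12) and Tlr2 (1.06 and 1.10) passed 2-fold without some single arrays. The causes were not tested. The difference for Cd163 ranged from -1.28 to -1.0 and for Lyve1 from -1.48 to -1.16 without 1 array.

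After cyclic loess, 7 changes relative to Csf1r had an adjusted p of 0.049: Cd14 0.25, Ccr1 -0.93 and Clec7a 2.08 at 7 DPI, and Mrc1 0.34, Lyve1 0.87, Ccr1 -0.82 and Clec7a 1.73 at 3 DPI. All 7 stood at the smallest p that the permutation test can give, 0.029. Their adjusted p depends on how many of the 12 tests stand there, so 0.049 is not stronger evidence for any 1 gene. Without 1 array, changes relative to Csf1r at 7 DPI ranged from -0.29 to -0.12 for Cd163, -0.07 to 0.17 for Mrc1, -0.03 to 0.08 for Lyve1, 0.18 to 0.29 for Cd14, -1.17 to -0.91 for Ccr1 and 2.02 to 2.10 for Clec7a. At 3 DPI they ranged from 0.32 to 0.53 for Cd163, 0.29 to 0.37 for Mrc1, 0.80 to 0.88 for Lyve1, 0.21 to 0.39 for Cd14, -0.95 to -0.76 for Ccr1 and 1.57 to 1.78 for Clec7a.

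Whether nerves with the same number came from the same animal could not be decided from 4 arrays a group. Correlations of deviations from the group means between nerves with the same number ran from -0.0814 to 0.223. At each day, 2 of 4 injured arrays correlated best with their own number. With the replicate number as a block, 14 members were called at 7 DPI, 25 at 3 DPI, 2 for the difference and 0 in the other comparisons, as without it. For the difference of effects, the compared groups alone are the same fit. Background correction could not be changed without scanner output, and 4 arrays a group limit the precision.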
